A study of Mus musculus with 9 samples.

Results

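MIN6 cells and mouse liver were compared within a single preparation of small RNA libraries, NEXTflex V2, both sequenced on the HiSeq. The comparison rests on 2 of the 9 libraries of the series, 1 labelled NEXTFlex MIN6 rep6 and 1 labelled NEXTFlex Mouse Liver, chosen by their labels alone. MIN6 is an insulin-secreting tumor line of the mouse that is used as a model of pancreatic beta cells, and it was grown in DMEM with 25 mM glucose and 10% heat-inactivated serum. The liver RNA came from 1 C57BL/6J female bought at 9 weeks of age, which was a control animal of other work, received saline by tail vein and was fasted overnight. A single cell line was thus set against a whole organ of 1 animal, which holds vessels, blood and stroma beside its hepatocytes. Each source had 1 library, so that no difference could be tested, and every interval given covers counting error only. The study's methods name the same Norgen kit for the liver RNA and for MIN6 RNA isolated at UNC, and TRIzol for RNA isolated at the NIH. Source and any difference in the date or place of RNA isolation cannot be told apart. In bulk RNA, a smaller number of cells of a type and less of an RNA per cell cannot be told apart either. As a yardstick of spread, replicate MIN6 libraries made with TruSeq (3) and with v1.5 (3) were used, and the TruSeq liver library, made from the same liver RNA, was set beside the 3 TruSeq MIN6 libraries.

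A miRNA is a short RNA cut from a hairpin precursor by Drosha and Dicer, and 1 or both arms of the hairpin are loaded into an Argonaute protein. Bases 2 to 8 of the mature miRNA, its seed, pair with target mRNAs, so that miRNAs with the same seed share many predicted targets and a shift of the 5′ end by a single base changes the seed. The 3′ end is more variable, and terminal nucleotidyl transferases can add A or U that the genome does not encode. In the liver, miR-122 is the classic hepatocyte miRNA and miR-192 and miR-194 are transcribed together. In islets, miR-375 is the best known miRNA of endocrine cells and miR-7 is also enriched.

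The mature sequences that the results turn on are printed by shared seed, with the seed in capitals. They were taken from RefSeq (GRCm38.p6), in which 232 of the 275 mature arms named here had an entry. The miR-7 pair and the miR-200 and miR-29 families are shown because all their highly expressed members lay on the MIN6 side, and miR-25 and miR-92a because they share a seed and lay on opposite sides.
miR-7a-5p: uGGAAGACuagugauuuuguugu
miR-7b-5p: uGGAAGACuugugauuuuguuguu
miR-200b-3p: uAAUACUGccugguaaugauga
miR-200c-3p: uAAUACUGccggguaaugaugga
miR-429-3p: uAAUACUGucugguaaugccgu
miR-200a-3p: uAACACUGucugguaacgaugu
miR-141-3p: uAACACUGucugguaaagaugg
miR-29a-3p: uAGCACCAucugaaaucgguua
miR-29b-3p: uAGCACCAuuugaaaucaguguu
miR-29c-3p: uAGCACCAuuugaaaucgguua
miR-25-3p: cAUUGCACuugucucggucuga
miR-92a-3p: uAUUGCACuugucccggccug
miR-7a-5p lay in RefSeq at chr13:58392841-58392863 on the minus strand, in an intron of Hnrnpk, and at chr7:78888295-78888317 on the plus strand, and miR-7b-5p at chr17:56243017-56243040 on the plus strand outside any annotated gene of that strand. The precursors of miR-200b, miR-200a and miR-429 lay together on chromosome 4 and those of miR-200c and miR-141 on chromosome 6, where miR-200c-3p spans chr6:124718324-124718346 on the minus strand. miR-25-3p (chr5:138165332-138165353, minus strand) lay within Mcm7, in a stretch annotated as exonic in at least 1 transcript, whereas miR-92a-3p had copies at chr14:115044476-115044496, in an exon of Mir17hg, and at chrX:52741854-52741874.

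The deposited expected counts summed to 25.6 M in MIN6 and 14.4 M in liver, 0.285% and 0.264% more than the numbers of mapped reads by which they were scaled to RPMM, the number of reads per M mapped reads. Named 5′ ends held 85.6% of the mapped reads of MIN6 and 83.3% of those of liver, and in both libraries 22 nt was the commonest read length. Of the counts, 87.3% were exact alignments in MIN6 and 76.1% in liver. The reads of both NEXTflex libraries were spread unusually over the low counts (plot of reads per distinct alignment). Among distinct exact alignments with a whole number of reads, the number of alignments fell with the number of reads and then rose again, to a second maximum at 141 to 160 reads in MIN6 and at 121 to 140 reads in liver. Accordingly, of the 374 named 5′ ends, 200 had over 100 reads in liver, 9 had 11 to 100 reads, 45 had 1 to 10 and 120 were listed at 0. In the TruSeq liver library, 67 of the same 5′ ends had 11 to 100 reads and 27 were listed at 0. A low or zero value in a NEXTflex library can therefore lie further from the true level than its counting interval says, and its cause was not tested. An interval given here treats each read as a separate molecule.

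**Figure D1:**
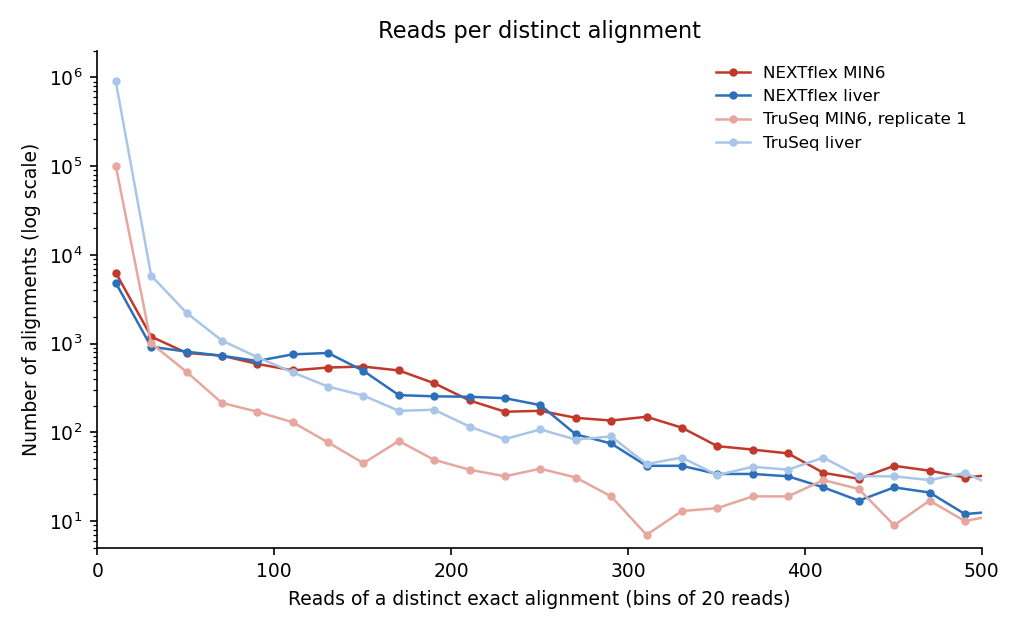
Number of distinct exact alignments (vertical axis, log scale) by their number of reads in bins of 20 (horizontal axis), for both NEXTflex libraries, 1 TruSeq MIN6 library and the TruSeq liver library. The NEXTflex lines rise to a second maximum at 141 to 160 reads in MIN6 and 121 to 140 reads in liver, whereas the TruSeq lines fall steeply from the lowest bin.

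As in the source study, miRNAs with at least 100 RPMM in 1 of the libraries compared were called highly expressed, and each 5′ start was a miRNA of its own. This gave 234 miRNAs, 183 at a reference start and 51 at a shifted start. MIN6 had 205 of them at 100 RPMM or more and liver 115, and 86 reached it in both. MIN6 alone reached it for 119 and liver alone for 29. For these the limit itself favors a ratio towards the library that reached it. After 1 RPMM was added to each value, 114 of the 234 (48.7%) were over 10-fold higher in MIN6 and 25 (10.7%) were over 10-fold higher in liver. Over 2-fold differences were found for 151 (64.5%) towards MIN6 and 43 (18.4%) towards liver. These shares depended on the scale, since single miRNAs filled much of each library. miR-122-5p took 53.2% of the mapped reads of liver (exact 95% interval 53.2% to 53.3%) and miR-7a-5p took 24.9% of those of MIN6 (24.9% to 24.9%). When libraries were scaled by the reads on named miRNAs without these 2, every ratio moved towards liver by 1.02 on the log2 scale before the constant was added. On that second scale 102 miRNAs (43.6%) remained over 10-fold higher in MIN6, all of them among the 114, and 28 (12%) were over 10-fold higher in liver, among them all 25 of the first scale. The median log2 ratio of the 234 was 3.14 by mapped reads and 2.13 on the second scale. For a sense of size, the highest and the lowest of 3 replicate MIN6 libraries differed for the same 234 miRNAs by a median of 1.10-fold with TruSeq and 1.09-fold with v1.5, with 95th percentiles of 1.41 and 1.33, and in none of the 234 by over 2-fold. These replicates do not cover the spread between animals or cultures of NEXTflex libraries, which was not measured. On the MIN6 side miR-106b-3p lay just inside the 10-fold limit, at 10.5-fold, and miR-185-5p just outside it, at 9.84-fold. On the liver side these were miR-101b-3p, at 10.2-fold, and miR-221-3p, at 7.97-fold.

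**Figure D2:**
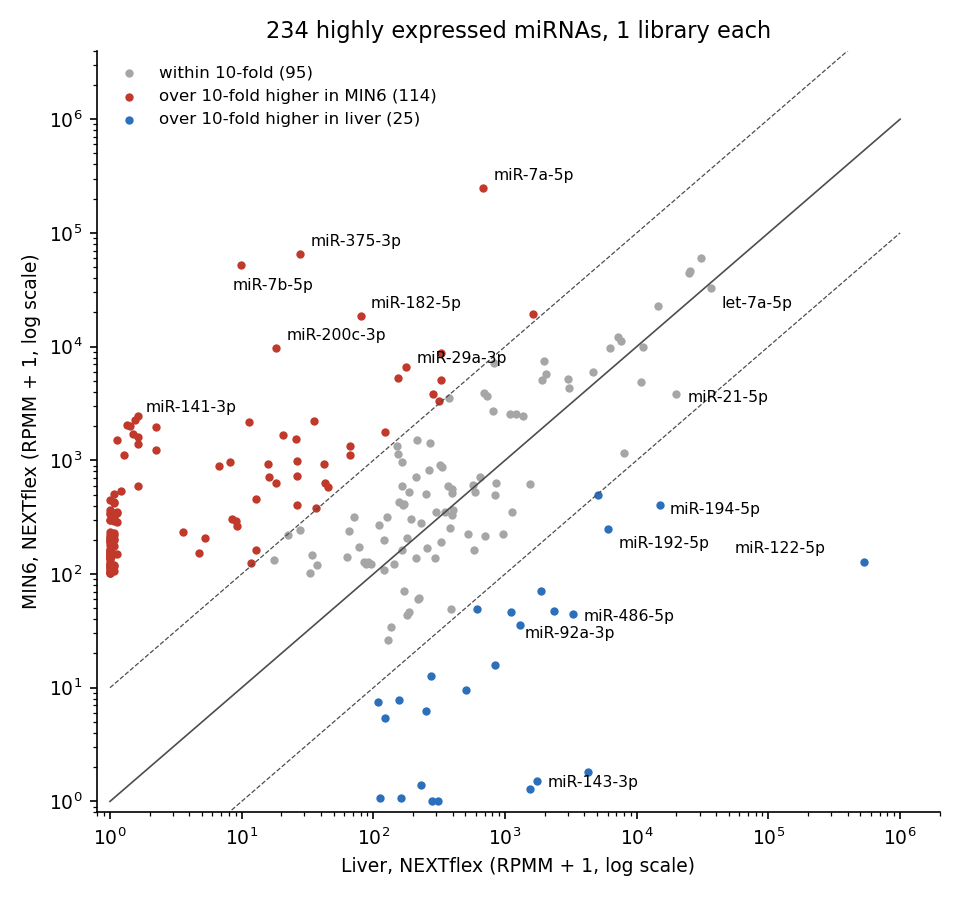
Level of each of the 234 highly expressed miRNAs in liver (horizontal axis) and in MIN6 (vertical axis), as RPMM plus 1 on log scales, 1 library each; the solid line marks equal levels and the dashed lines 10-fold differences. Red points (114) lie over 10-fold towards MIN6, many of them at the left edge where liver is at or near 0, and blue points (25) over 10-fold towards liver, with miR-122-5p farthest to the right.

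The 10 most abundant miRNAs took 61.0% of the mapped reads in MIN6 and 72.1% in liver, and 5 miRNAs stood in both lists, all of the let-7 family. In MIN6 the order was miR-7a-5p (248933 RPMM), miR-375-3p (64950), let-7c-5p (60154), miR-7b-5p (52492), let-7b-5p (45901), let-7f-5p (44142), let-7a-5p (33057), let-7g-5p (22923), let-7i-5p (19165) and miR-182-5p (18540). In liver, miR-122-5p (532452 RPMM) was followed by let-7a-5p (36677), let-7c-5p (30669), let-7b-5p (25166), let-7f-5p (25141), miR-21-5p (19738), miR-194-5p (14899), let-7g-5p (14515), miR-16-5p (11065) and miR-30a-5p (10755). Beyond the let-7 family, the lists thus had no miRNA in common.

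Endocrine miRNAs lay on the MIN6 side. The list held 8 miRNAs, and all 7 that were highly expressed were over 10-fold higher in MIN6 on both scales, against 50.3% of the 183 reference miRNAs. Apart from miR-7a-5p they passed the limit of 100 RPMM through MIN6 alone, which favors such a call. miR-375-3p, which restrains insulin secretion and is needed for a normal beta-cell mass, was at 64950 RPMM in MIN6 and 26.7 RPMM in liver, a ratio of 2346 (95% interval 2202 to 2697, without the added constant). miR-7b-5p was at 52492 RPMM in MIN6 and 8.95 RPMM in liver, near the low-count maximum of the liver library at 9.04 RPMM. Its ratio, 5273, was the largest of any reference miRNA towards MIN6 with 1 RPMM added, a rank that rests on this low value. Its paralog miR-7a-5p, which shares the seed, was higher in liver than miR-7b-5p, at 678 RPMM, so that its ratio was smaller, 367 (360 to 375). The sums of both were 301425 RPMM in MIN6 and 687 RPMM in liver. The miR-183 cluster, known from sensory and neuroendocrine cells, followed with miR-182-5p at 18540 against 79.1 RPMM and miR-183-5p at 201 against 0.07 RPMM. miR-96-5p, the other member of that cluster, fell just short of 100 RPMM, at 97.2 RPMM in MIN6, and was listed at 0 in liver. miR-184-3p, an islet miRNA, had the smallest ratio of the list, 39.1, at 206 against 4.31 RPMM. miR-7a-2-3p, the passenger arm of a miR-7a precursor, was at 143 RPMM in MIN6 and listed at 0 in liver. With values of both libraries raised to 27.1 RPMM, 3 times the level of the low-count maximum of liver and a setting chosen after seeing the data, 4 of the 7 stayed over 10-fold. Of all 234 miRNAs, 62 were over 10-fold higher in MIN6 in that setting.

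Highly expressed hepatocyte miRNAs lay on the liver side, miR-802-5p only slightly by mapped reads. Of 7 members named here, 5 were highly expressed and 4 of these were over 10-fold higher in liver, against 8.74% of the reference miRNAs. With low values raised 3 were, against 18 of all 234 miRNAs. miR-122-5p was at 532452 RPMM in liver and at 128 RPMM in MIN6, a ratio of 4138. The other arm of its precursor, miR-122-3p, was at 83.3 RPMM in liver and listed at 0 in MIN6. miR-194-5p was at 14899 RPMM in liver and 401 RPMM in MIN6, a ratio of 37.1, and miR-192-5p was at 6026 and 249 RPMM, a ratio of 24.1. Both were thus abundant in liver and well above the threshold of 100 RPMM in MIN6. The passenger arm miR-194-2-3p was at 162 RPMM in liver and rested on 2 reads in MIN6. Unlike these, miR-802-5p, known from liver, differed little, with 858 RPMM in liver and 628 RPMM in MIN6, a ratio of 1.37 that became 2.76 on the second scale. In the TruSeq libraries it was at 504 RPMM in liver and at 59.0, 58.6 and 51.2 RPMM in MIN6. Its other arm, miR-802-3p, was at 15.02 RPMM in NEXTflex MIN6 and listed at 0 in NEXTflex liver, but at 129 RPMM in TruSeq liver.

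The small amount of miR-122-5p in MIN6 and of miR-7a-5p in liver can be described further by the form of the reads. With TruSeq, miR-122-5p was at 0.15, 0.44 and 0.58 RPMM in the 3 MIN6 libraries and at 17244 RPMM in liver, beside 128 and 532452 RPMM with NEXTflex. In the NEXTflex MIN6 library 14.6% of its reads (13.4% to 15.9%, of 3265 reads) ended in an A that the genome does not have at that place, close to the 17.4% of liver and above the 2.01% of the median miRNA of that library. For miR-7a-5p the share was 1.00% in MIN6 and 10.3% in liver (9.68% to 10.9%, of 9756 reads), and with TruSeq it was 1.13% to 1.64% in MIN6 and 11.9% in liver. The liver reads of miR-7a-5p thus differed in form from those of MIN6, while the MIN6 reads of miR-122-5p did not differ much from those of liver. The cause of either was not tested.

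The miR-200 family, which is typical of epithelial cells and represses the transcription factors ZEB1 and ZEB2, was over 10-fold higher in MIN6 in all 5 highly expressed members, against 50.3% of the reference miRNAs. These carry 2 different seeds, printed above. miR-141-3p had the largest ratio, 1444, at 2247 RPMM in MIN6 and 0.56 RPMM in liver. The liver value rested on 8 reads, so that the size of this ratio depends on the added 1 RPMM. miR-200c-3p, from the same precursor cluster, was the most abundant, at 9660 against 17.3 RPMM, a ratio of 527. Of the chromosome 4 cluster, miR-200a-3p was at 1229 against 1.25 RPMM, miR-200b-3p at 1346 against 65.9 RPMM and miR-429-3p at 633 against 17.4 RPMM. miR-200b-3p had the smallest ratio of the 5, 20.1, which fell to 10.0 on the second scale. With TMM or the median of ratios 4 of the 5 stayed over 10-fold. The remaining highly expressed epithelial miRNA, miR-203-3p, known from stratified epithelium, lay on the other side, at 11.6 RPMM in MIN6 and 274 RPMM in liver.

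miRNAs best known from neurons were numerous on the MIN6 side. Of 18 in the list 12 were highly expressed, all over 10-fold higher in MIN6 on both scales, against 50.3% of the reference miRNAs, and 6 of the 12 were listed at 0 in liver. With low values raised to 27.1 RPMM, 6 of the 12 stayed over 10-fold, against 62 of all 234 miRNAs. The most abundant were miR-128-3p, at 2165 against 10.3 RPMM, miR-9-5p, at 1688 against 0.49 RPMM, and miR-129-5p, at 1664 against 19.6 RPMM. miR-132-3p, induced by CREB in neurons, was at 432 RPMM in MIN6 and rested on 1 read in liver, a ratio of 405 whose interval without the constant ran from 1116 upward. It was at 31.4 RPMM in TruSeq liver. miR-138-5p was at 295 RPMM in MIN6, listed at 0 in NEXTflex liver and at 3.76 RPMM in TruSeq liver. miR-124-3p, the most abundant miRNA of mature neurons, reached 84.9 RPMM in MIN6, below the limit, and 0.21 RPMM in liver. miR-149-5p was the only member of the 18 under 10-fold, at 37.2 and 17.9 RPMM. The median log2 ratio of the 12 was 7.62, and 3.26 with low values raised.

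Most highly expressed miRNAs of 3 gene clusters were on the MIN6 side, and since many were at or near 0 in liver, the counts over 10-fold depended on how low values were treated. The Dlk1-Dio3 region of chromosome 12 is imprinted, and its miRNAs are expressed from the maternal allele in brain and endocrine tissue. Of its 38 members named here 18 were highly expressed, all over 10-fold higher in MIN6 on both scales, against 50.3% of the reference miRNAs, and 12 of them were listed at 0 in liver. With low values raised to 27.1 RPMM, 6 of the 18 stayed over 10-fold, against 62 of all 234 miRNAs. The median log2 ratio of the 18 fell from 7.26 to 2.56, and that of all 234 from 3.14 to 2.13. miR-1247-5p, which was not in the list, lay at the Dio3 end of the region, in an exon of Dio3os (chr12:110278094-110278115, minus strand), and was 39.6-fold higher in liver. miR-379-5p was the most abundant, at 2208 RPMM in MIN6 and 34.7 RPMM in liver, followed by miR-541-5p at 1116 and 0.28 RPMM and miR-127-3p at 935 and 14.9 RPMM. The sum of the 38 was 7983 RPMM in MIN6 and 50.3 RPMM in liver. In TruSeq the same sum lay higher, at 54582 RPMM in the first MIN6 library and at 1013 RPMM in liver, with miR-127-3p alone at 644 RPMM in TruSeq liver and miR-541-5p at 117. miR-434-3p, listed at 0 in NEXTflex liver, was at 66.3 RPMM in TruSeq liver. A second cluster, miR-669 and miR-467 in an intron of Sfmbt2, also imprinted, had 6 highly expressed members, all over 10-fold higher in MIN6 (50.3% of the reference miRNAs). Of the 6, 5 remained so with TMM scaling, against 100 of all 234 miRNAs, and 2 with low values raised, against 62. miR-669c-5p was at 920 against 41.5 RPMM, while miR-669l-5p, miR-669d-5p and miR-669o-5p, at 299, 235 and 207 RPMM in MIN6, were listed at 0 in liver. The members of this cluster are near-identical copies, reads that fit several of them were divided, and their separate levels are uncertain. In TruSeq MIN6 the 6 summed to 44.1 RPMM in the first library, against 2010 RPMM with NEXTflex. The third is a cluster on the X chromosome that is known from testis. All its 7 members were highly expressed and over 10-fold higher in MIN6 (50.3% of the reference miRNAs), 3 of them with low values raised (62 of all 234). They were led by miR-465b-5p at 340 against 0.14 RPMM and miR-871-3p at 290 against 0.07 RPMM. The cluster summed to 1620 RPMM in MIN6 and 2.99 RPMM in liver.

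Other miRNAs completed the 12 largest ratios towards MIN6. Both arms of the miR-483 precursor, in an intron of Igf2, were among them, miR-483-5p at 1506 against 0.14 RPMM and miR-483-3p at 1396 against 0.63 RPMM. Both were listed at 0 in TruSeq liver and lay between 118 and 269 RPMM in the TruSeq MIN6 libraries. miR-130b-3p was at 1976 against 1.25 RPMM, a ratio of 878, although its family member with the same seed miR-130a-3p was only 2.77-fold higher in MIN6, at 430 against 155 RPMM. miR-411-5p, of the Dlk1-Dio3 region, was at 506 against 0.07 RPMM and miR-325-5p at 532 against 0.21 RPMM. The miR-29 family, whose targets include collagens and other matrix genes, was over 10-fold higher in MIN6 in all 3 members (50.3% of the reference miRNAs), with miR-29a-3p at 6580 against 176 RPMM, miR-29c-3p at 632 against 42.2 RPMM and miR-29b-3p at 592 against 0.63 RPMM. On the second scale miR-29c-3p was 7.29-fold higher. In TruSeq liver the family was nearly unseen, at 0.49 RPMM for miR-29a-3p and 0 for miR-29c-3p.

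**Figure D3:**
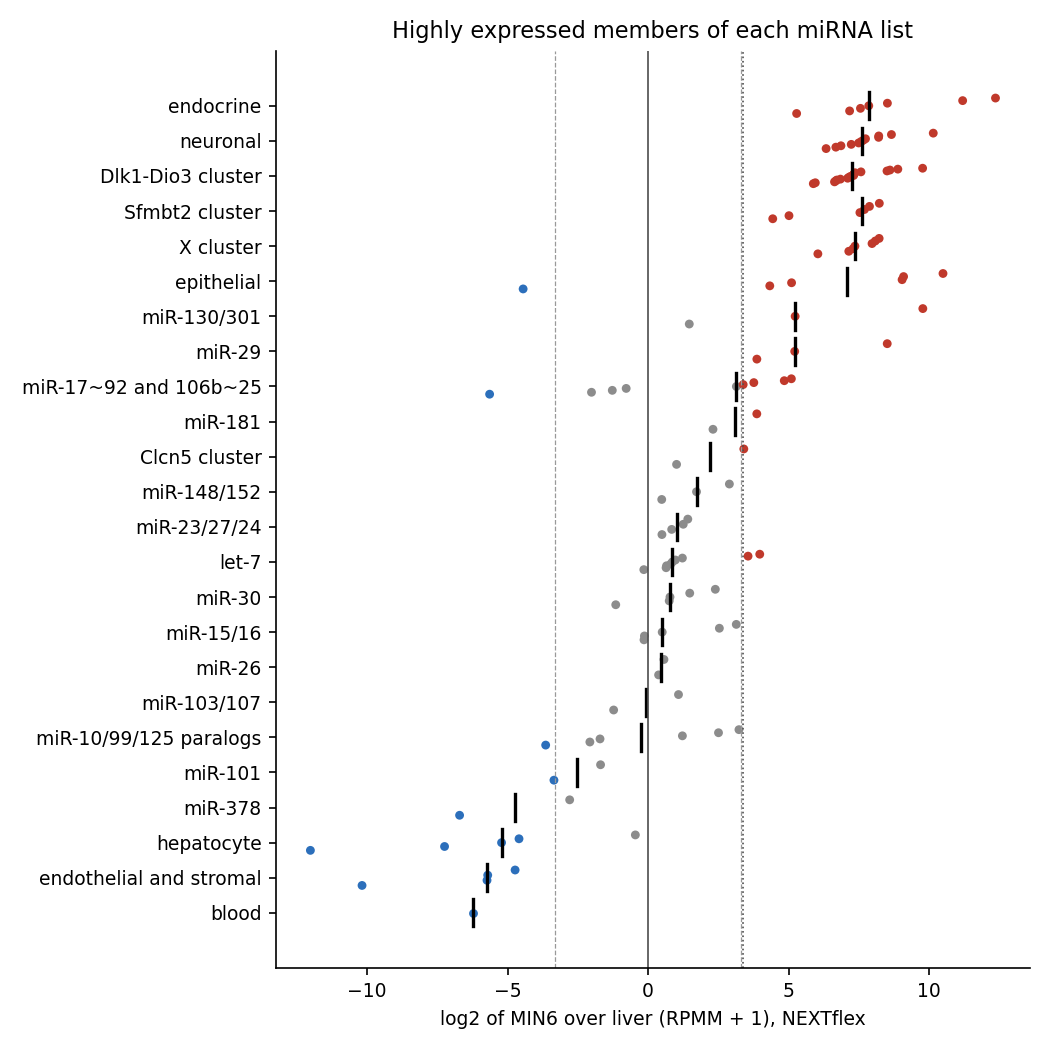
log2 ratio of MIN6 over liver (RPMM plus 1, horizontal axis) for the highly expressed members of 24 lists of miRNAs; points are miRNAs at their reference start, red or blue where over 10-fold, bars are list medians, dashed lines mark 10-fold and the dotted line the median of all 183 reference miRNAs, 3.39. The endocrine, neuronal, Dlk1-Dio3, Sfmbt2 and X cluster lists lie wholly to the right, the hepatocyte, endothelial, stromal and blood lists to the left, and let-7, miR-26, miR-15/16 and miR-30 near the middle.

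Towards liver, the 12 largest ratios of reference miRNAs held, beside hepatocyte miRNAs, several known from other cells of the organ. miR-143-3p, of smooth muscle and stroma, was at 1745 RPMM in liver and 0.51 RPMM in MIN6, a ratio of 1158. Endothelial miR-126 had 841 RPMM in its 5p and 1884 RPMM in its 3p arm in liver, against 14.9 and 70.0 RPMM in MIN6. miR-199a-3p, of fibroblasts and stellate cells, was at 502 against 8.64 RPMM. Of the endothelial and stromal list, 4 of 5 members named here were highly expressed and all 4 were over 10-fold higher in liver, against 8.74% of the reference miRNAs, with a sum of 5033 RPMM against 94.03 RPMM. The blood list held 1 highly expressed member, miR-486-5p of red cells, at 3289 RPMM in liver and 43.1 RPMM in MIN6. Erythroid miR-451 and the lymphocyte miRNA miR-150-5p were at 51.6 and 57.7 RPMM in liver, and at 0.04 and 0 RPMM in MIN6. miR-142-5p, found across blood cells, was at 27.7 RPMM in NEXTflex liver but at 3777 RPMM in TruSeq liver. The part that such cells had in the liver values was not tested. Also among the 12 were miR-92a-3p (2358 against 46.4 RPMM), miR-1247-5p (248 against 5.28 RPMM) and miR-378-5p (112 RPMM against 2 reads), the last beside its more abundant partner miR-378-3p, at 7984 against 1155 RPMM. miR-21-5p, high in many tissues and tumors, was 5.17-fold higher in liver, at 19738 against 3816 RPMM.

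Among miRNAs with at least 1000 RPMM in both libraries, the 6 with ratios closest to 1 by mapped reads were miR-16-5p, let-7a-5p, miR-26b-5p, miR-148a-3p, miR-26a-5p and let-7d-5p. let-7a-5p was at 33057 RPMM in MIN6 and 36677 RPMM in liver and miR-16-5p at 10018 and 11065 RPMM, both 0.90 to 0.91 times as high in MIN6. miR-26b-5p (6021 and 4638 RPMM), miR-148a-3p (4285 and 3056) and miR-26a-5p (11168 and 7540) were 1.30 to 1.48-fold higher in MIN6. On the second scale all 6 were lower in MIN6, with ratios between 0.45 and 0.77, so that let-7a-5p and miR-16-5p kept their side and the other 4 changed it. The let-7 family as a group also changed sides. Its 9 members, which share the seed GAGGUAG and hold back proliferation and the fetal program in many tissues, summed to 242757 RPMM in MIN6 and 141457 RPMM in liver, with a median log2 ratio of 0.87 by mapped reads and -0.15 on the second scale. Within the family the members were not alike. let-7i-5p, at 19165 against 1625 RPMM, and miR-98-5p, at 5105 against 324 RPMM, were 11.8 and 15.7-fold higher in MIN6, and still 5.82 and 7.78-fold higher on the second scale, whereas the other 7 lay between 0.90 and 2.33.

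miRNAs of 1 seed often differed between the sources, and before the constant is added such ratios relative to each other do not depend on the scale. Of 154 highly expressed reference miRNAs with a sequence, 55 shared 1 of 19 seeds with at least 1 other. In 5 of the 19 every member was over 10-fold higher in MIN6, namely miR-7, miR-29, both miR-200 seeds and miR-465, where 50.3% of all reference miRNAs were. On the second scale the miR-29 seed was no longer among them, since miR-29c-3p was 7.29-fold higher. In 8 at least 1 member was over 2-fold higher in each library, and in 6 of these on both scales. The seed AUUGCAC was 1 of these 6. miR-25-3p, from the miR-106b~25 cluster in Mcm7, was 13.6-fold higher in MIN6, at 3857 against 283 RPMM, and miR-92a-3p, from the miR-17~92 cluster, was 49.8-fold higher in liver, at 2358 against 46.4 RPMM. Their sequences are printed above. Members with the seed AAAGUGC also differed by cluster. miR-106b-5p (5310 against 154 RPMM) and miR-93-5p (7243 against 819 RPMM) were 34.3 and 8.84-fold higher in MIN6, and miR-17-5p (70.2 against 171 RPMM) and miR-20a-5p (189 against 324 RPMM) were 2.41 and 1.71-fold higher in liver. The miR-17~92 cluster was not of 1 direction, since its member miR-18a-5p, with another seed and below the limit of high expression, was at 60.2 RPMM in MIN6 and 0.42 RPMM in liver. In TruSeq, miR-92a-3p was at 177, 184 and 182 RPMM in MIN6 and 18020 RPMM in liver, and miR-25-3p was at 3256, 3568 and 3659 RPMM in MIN6 and 409 RPMM in liver.

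Paralogs of the miR-99 and miR-125 clusters divided likewise. These clusters exist in several copies that each combine a let-7, a miR-99 or miR-100 and a miR-125. The copy on chromosome 17, with miR-99b-5p, let-7e-5p and miR-125a-5p, was higher in MIN6, at 3557 against 377 RPMM, 2558 against 1095 RPMM and 3928 against 690 RPMM. Other miR-99, miR-100 and miR-125 members were higher in liver, with miR-125b-5p at 707 against 216 RPMM, miR-99a-5p at 180 against 42.2 RPMM and miR-100-5p at 98.97 RPMM in liver and 0 in MIN6. let-7c-5p, which has copies on chromosomes 15 and 16, the latter in Mir99ahg, was instead 1.96-fold higher in MIN6 by mapped reads and at 0.97 times the liver level on the second scale. In the 146 pair, which feeds back on NF-kB signaling, miR-146a-5p was 2.53-fold higher in liver, at 1556 against 615 RPMM, and miR-146b-5p 35.8-fold higher in MIN6, at 458 against 11.8 RPMM. The miR-30 family, which shares the seed GUAAACA, had a median log2 ratio of 0.78 by mapped reads and -0.24 on the second scale, so that no direction is given for it as a group. Within it miR-30a-5p was 2.22-fold higher in liver, at 10755 against 4850 RPMM, and miR-30b-5p 5.26-fold higher in MIN6, at 1412 against 268 RPMM.

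Of the miR-181 family, miR-181a-5p (3643 against 733 RPMM) and miR-181b-5p (1786 against 121 RPMM) were higher in MIN6, and miR-181c-5p (13.7 against 38.4 RPMM) was 2.68-fold higher in liver. miR-101b-3p, at 5063 RPMM in liver and 496 RPMM in MIN6, and miR-101a-3p, at 1124 and 348 RPMM, were 10.2 and 3.22-fold higher in liver. miR-103-3p was 2.12-fold higher in MIN6 and miR-107-3p, which has the same seed, 2.34-fold higher in liver. On the second scale the ratio of miR-103-3p was 1.05. The lists of miR-148, of miR-23, miR-27 and miR-24 and of the Clcn5 cluster had no highly expressed member over 10-fold on the second scale, where 43.6% of the 234 miRNAs were over 10-fold higher in MIN6 and 12% in liver. By mapped reads miR-501-3p of the Clcn5 cluster was 10.6-fold higher in MIN6. Among the abundant members, miR-152-3p was at 2687 against 812 RPMM, miR-24-3p at 5131 against 1923 RPMM, miR-27b-3p at 2439 against 1360 RPMM and miR-532-5p at 505 against 249 RPMM, of which only miR-152-3p and miR-24-3p kept a ratio above 1.3 on the second scale.

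The same sources prepared with TruSeq gave further libraries, from the same liver RNA and other MIN6 RNA, on another sequencer for MIN6, the GAIIx. The study places its GAIIx runs at the NIH, for which its methods name TRIzol, whereas the liver RNA came from the Norgen kit. Source, RNA isolation, sequencer and site thus cannot be told apart in the TruSeq contrast. Of the 114 miRNAs over 10-fold higher in MIN6 with NEXTflex, 113 were higher in MIN6 with TruSeq by the mean of 3 libraries, 85 of them over 10-fold. All 25 miRNAs over 10-fold higher in liver were higher in TruSeq liver than in each of the 3 TruSeq MIN6 libraries, 23 of them over 10-fold. Over all 234 miRNAs, TruSeq had 89 (38%) over 10-fold higher in MIN6 and 27 (11.5%) over 10-fold higher in liver. Among the 114 and the 25, which were chosen for large ratios with NEXTflex, directions were thus alike more than sizes. The share on the same side over all 234 was not counted. miR-7a-5p was at 1015, 782 and 915 RPMM in TruSeq MIN6 and 6.61 RPMM in TruSeq liver, and so at a small fraction of its NEXTflex level in both sources. miR-192-5p, at 82266 RPMM the most abundant of its list in TruSeq liver, exceeded miR-122-5p there, whereas with NEXTflex it stood at 6026 RPMM. miR-10a-5p, for example, was 12.5-fold higher in liver with NEXTflex and 271-fold with TruSeq.

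**Figure D4:**
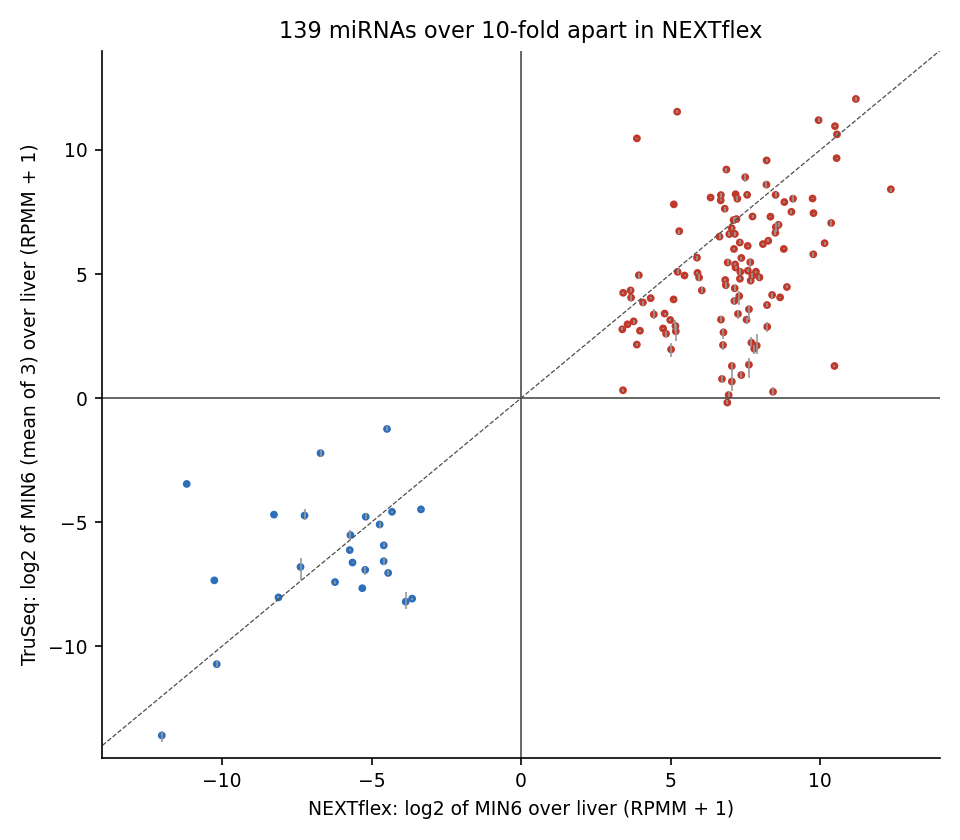
log2 ratio of MIN6 over liver with NEXTflex (horizontal axis) and with TruSeq (vertical axis, mean of 3 MIN6 libraries; gray lines span the 3) for the 139 miRNAs over 10-fold apart with NEXTflex; RPMM plus 1 throughout. All blue points (25, higher in liver) and all but 1 of the red points (114, higher in MIN6) lie on the same side of 0 with TruSeq, and the dashed line marks equal ratios.

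The form of the reads was compared for the 86 miRNAs with at least 1000 reads at their reference start in both libraries, as shares within a miRNA, which no scaling changes. Reads whose last base was an A in conflict with the genome were more frequent in liver. This 3′ A was a larger share of the reads in liver for 73 of the 86 miRNAs, with a median of 8.80% in liver and 2.01% in MIN6 and a median difference of 6.02 percentage points. Over all reads at reference starts it was 14.5% in liver and 2.14% in MIN6, and 9.01% in liver without miR-122-5p. When reads were divided by the position of the maximum at low counts, to allow for reads that are not separate molecules, the exact intervals of 28 of the 86 lay apart with liver higher and of 0 with MIN6 higher. By shares as such, without intervals, 13 were higher in MIN6. miR-28-3p had the largest difference, with 0.02% in MIN6 and 51.0% in liver (49.4% to 52.7%, of 3660 reads). It was followed by miR-532-5p with 4.42% and 34.2%, miR-126-3p with 0.17% and 29.5%, and miR-101a-3p with 2.64% and 31.5%. Against the trend, miR-486-5p had 24.7% in MIN6 (22.2% to 27.4%, of 1101 reads) and 10.9% in liver. With TruSeq, 60 miRNAs had 1000 reads in all 4 libraries, and the 3′ A was more frequent in liver than in each of the MIN6 libraries for 58 of them, with medians of 6.12% and 2.11%. There, the 3 MIN6 libraries spanned a median of 0.207 percentage points. miR-28-3p, with only 234 to 463 reads in the TruSeq MIN6 libraries, was at 13.6% to 14.97% there and at 85.4% in TruSeq liver.

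**Figure D5:**
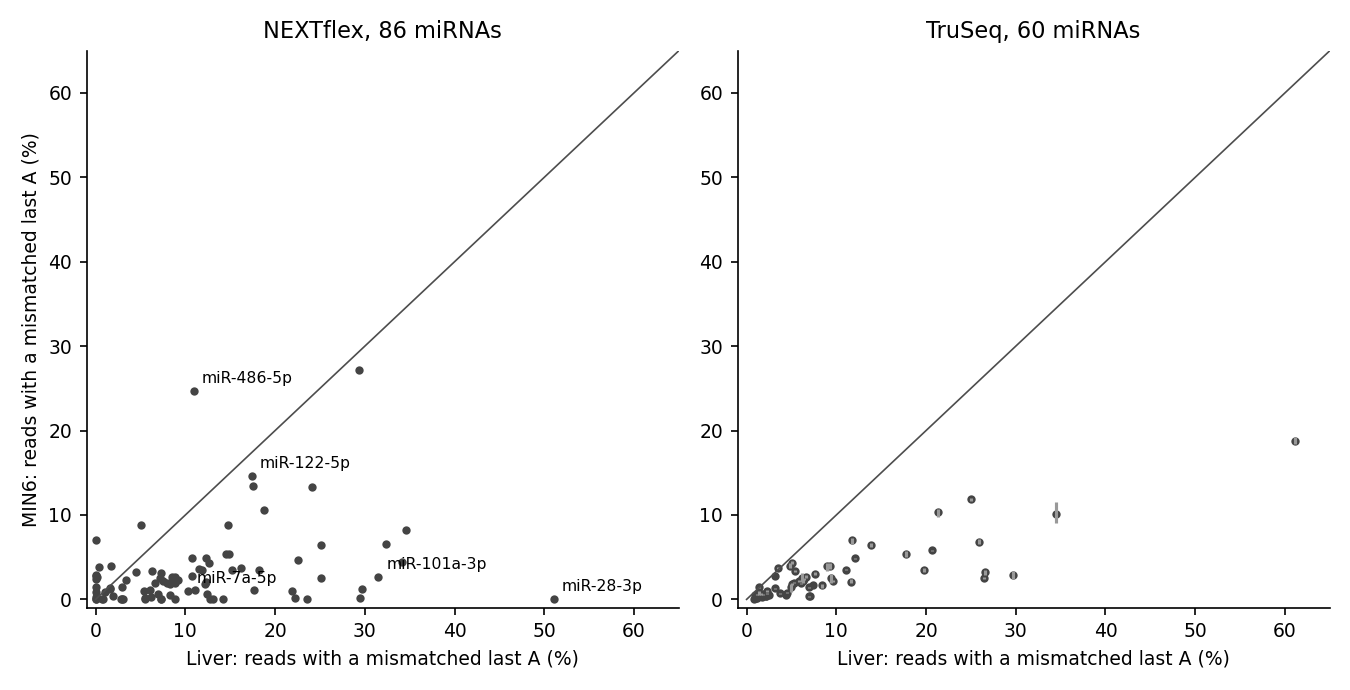
Share of the reads of a miRNA, at its reference start, that end in an A in conflict with the genome, in liver (horizontal axis) and MIN6 (vertical axis), for 86 miRNAs with NEXTflex (left) and 60 with TruSeq (right, mean of 3 MIN6 libraries with gray lines over their span). Most points lie below the line of equal shares in both panels; miR-28-3p is at 51.0% in liver and 0.02% in MIN6 with NEXTflex.

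A last U in conflict with the genome was less uniform. It was a larger share in liver for 52 of the 86 miRNAs and in MIN6 for 32, with medians of 8.98% and 5.21%. With TruSeq, 58 of 60 were higher in liver by the mean of the MIN6 libraries. miR-107-3p had 4.27% in MIN6 and 29.0% in liver, and 11.3% to 13.5% and 58.6% with TruSeq. miR-191-5p had 0.95% and 28.5%, but 0.14% to 0.16% and 0.95% with TruSeq, where it had at least 135504 reads in each library against 2679 in NEXTflex liver. miR-22-3p, with 24.4% in NEXTflex liver and 0.04% in TruSeq liver, was alike in this. miR-484 had 17.3% in MIN6 and 41.4% in liver, and 8.78% to 9.40% and 15.9% with TruSeq. Mean read length differed little, by a median of 0.202 nt in either direction. The widest differences were those of miR-181a-5p, at 23.65 nt in MIN6 and 22.73 nt in liver, of miR-99a-5p, at 21.72 and 22.60 nt, of miR-92a-3p, at 22.03 and 22.89 nt, and of miR-28-3p, at 21.95 and 22.80 nt. With TruSeq, miR-181a-5p, miR-92a-3p and miR-28-3p kept their direction. miR-99a-5p did not differ there, at 21.57 to 21.61 nt in MIN6 and 21.59 nt in liver, on 203 to 428 MIN6 reads.

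The 5′ start sets the seed. The share of reads at a shifted start within 5 nt had a median of 1.37% in MIN6 and 1.14% in liver, and was higher in MIN6 for 51 of the 86 miRNAs and in liver for 30. With TruSeq it was higher in liver for 52 of 60, with medians of 0.90% in MIN6 and 1.40% in liver. miR-101a-3p had more shifted starts in MIN6 in both preparations, against the majority with TruSeq but not with NEXTflex. Of its reads, 44.7% (44.0% to 45.5%) in MIN6 and 17.1% (16.6% to 17.6%) in liver began elsewhere, nearly all of them 1 nt upstream (44.7% and 16.9%), and the share with TruSeq was 69.9% to 72.1% in MIN6 and 31.6% in liver. The sequences of the reference start and of the start 1 nt upstream are shown because the shift replaces the seed, again in capitals.
miR-101a-3p: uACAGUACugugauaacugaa
miR-101a-3p, start 1 nt upstream: gUACAGUAcugugauaacugaa
The seed of the shifted form, UACAGUA, is that of miR-101b-3p in RefSeq. miR-101b-3p was the arm whose mismatch letters went against its RefSeq sequence, in 36.2% of its reads with a mismatch, so that its read forms are not given. miR-101a-3p lay at chr4:101346957-101346977 on the minus strand, in an exon of the noncoding RNA E130102H24Rik. miR-455-3p had 26.5% of its reads at shifted starts in MIN6 and 53.4% in liver, and 13.5% to 15.3% and 28.1% with TruSeq. For miR-10a-5p the shares were 0% in MIN6 and 32.0% in liver, but 26.8% to 28.3% and 27.7% with TruSeq, and for miR-182-5p they were 1.05% and 18.8%, but 0.19% to 0.23% and 1.16% with TruSeq. The NEXTflex values of the last 2 rested on 1226 reads in MIN6 and 1138 reads in liver, respectively.

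Both arms were named for 48 hairpins, of which 25 had at least 1000 reads in each library. The share of the 5p arm differed by a median of 1.69 percentage points, and the arm with most reads differed in 1 of the 25. The comparison of arms was added after values had been seen. It was miR-455, with 52.6% of its reads on the 5p arm in MIN6 (51.9% to 53.4%) and 0.2% in liver (0.0% to 0.7%, of 1021 reads), against 53.1% to 56.1% and 9.8% with TruSeq. For miR-140, whose 3p arm prevailed in both, the 5p share was 22.3% in MIN6 and 8.4% in liver, and 27.2% to 29.3% and 5.1% with TruSeq. The difference for miR-423, 30.9% against 16.2%, had the other direction with TruSeq, at 19.1% to 20.3% in MIN6 and 27.8% in liver. That for miR-126, 17.5% against 30.9%, was small beside the gap between preparations, since with TruSeq 90.1% to 91.2% of the MIN6 reads and 94.8% of the liver reads lay on the 5p arm.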

How the data were processed

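For each library the authors deposited 1 line per distinct alignment, giving its place in mm9, its mismatches as an edit string and its expected count. Reads with several equally good places had been divided among them. The submitters' processing notes name cutadapt, Bowtie and mm9, and the study's methods state that 4 nt next to each adapter were trimmed from NEXTflex reads, where the adapters carry random bases. Here the deposited expected counts of each 5′ end were added up and scaled to RPMM by the mapped reads in the study's sequencing summary. The end of an exact alignment was read as inclusive and that of an alignment with edits as exclusive, after which mismatch letters conflicted with RefSeq in 1 of 225 arms checked. Names came from the study's lists of miRNAs (358 entries for MIN6 and 178 for liver), matched by their values with a relative tolerance of 3e-05, and 16 entries of the first and 7 of the second were placed by their columns above 0 only. Copies of a precursor were summed, which left 374 named 5′ ends.

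Ratios are of RPMM plus 1 and were counted past 10-fold. Their intervals are exact Clopper-Pearson intervals (95%) of the MIN6 share of the counts, without the constant and for counting error only. Apart from 1 result in the closing section, no single ratio is given against a value listed at 0, since low NEXTflex values can be off by more than counting error. The second scale kept the geometric mean of the library sizes. Named are the 12 largest ratios among reference miRNAs in each direction, the 10 most abundant of each library, the 6 closest to 1 above 1000 RPMM, up to 4 members of each list or more where a result needed them, and the 4 largest differences in 3′ A, 3′ U, shifted starts and length. The same rule was run for other last bases and for single shifts, whose miRNAs are not described. Members and lists were chosen with earlier results of these data known and are no independent support. The computation was tested on simulated data. R 4.3.3 with edgeR 4.0.16 served for TMM factors alone, and all else was computed in Python 3.11.15 (pandas 2.3.3, numpy 2.4.6, SciPy 1.17.1) and drawn with matplotlib 3.10.9.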

Additional observations from a re-analysis of the deposited data

Results flagged for a closer look

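A start 2 nt upstream of the reference start of miR-5099 went in opposite directions in the preparations. With NEXTflex it was listed at 0 in liver and was at 118 RPMM in MIN6, a ratio of 119 after 1 RPMM was added, which is no bound. With TruSeq it was lower in each of the 3 MIN6 libraries, at 259, 266 and 294 RPMM, than in liver, at 309 RPMM. The difference between the preparations was not tested.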

How the results depend on the processing

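With 1 library per source no ratio has a replicate check. Of 56 named miRNAs over 10-fold apart none changed sides under the other settings, but 51 stayed over 10-fold on the second scale, 49 each with TMM and the median of ratios, and 43 with low values raised as described next. The number of miRNAs over 10-fold higher in MIN6 (114) and in liver (25) became 43 and 15 of 110 with a limit of 500 RPMM and 189 and 47 of 374 with none, and 16 were higher in liver among reference starts only. TMM gave 100 and 33, and the median of ratios 98 and 36. An alternative chosen after seeing the data raised values of both libraries to 27.1 RPMM, 3 times the low-count maximum of liver. It left 62 and 18, and 7 of 24 lists instead of 12 with a median over 10-fold, the lists that lost it being Dlk1-Dio3, neuronal, Sfmbt2, X cluster and miR-378. Of 38 named miRNAs under 10-fold, 13 changed sides on the second scale and 20 with the median of ratios. Left out in turn, the TruSeq MIN6 libraries left 138 miRNAs on the side they had with NEXTflex each time. With a minimum of 200 reads, the 3′ A was more frequent in liver for 67.5% of 123 miRNAs, against 84.9% of 86. No paired analysis was possible because each NEXTflex group has 1 library and the replicate numbers shared by TruSeq and v1.5 belong to no comparison made here.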

Other observations

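The TruSeq and v1.5 libraries of MIN6 give a further view of the read forms. Over all reads at reference starts, a last A in conflict with the genome made up 1.77% to 1.81% of the reads in the 3 TruSeq MIN6 libraries and 2.58% to 2.62% in the 3 v1.5 MIN6 libraries, beside 2.14% in NEXTflex MIN6, and 5.78% in TruSeq liver beside 14.5% in NEXTflex liver. A last U made up 4.64% to 4.85% with TruSeq, 5.26% to 5.31% with v1.5 and 3.69% with NEXTflex in MIN6. A last G in conflict with the genome was at 4.04% to 4.36% in the TruSeq MIN6 libraries and at 0.345% or less in each of the other libraries analysed here.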
